A study of Mus musculus with 2 samples.

Results

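The tumor necrosis factor (TNF) superfamily comprises small ligands, most of them anchored in the membrane of the sending cell, and the receptors they engage. Its members were taken from the deposited gene list by symbol: Tnf, Lta, Ltb, Ltbr, Fas, Fasl, Cd27, Cd40, Cd40lg, Cd70 and every symbol that begins with Tnfsf or Tnfrsf and a digit. This rule chose 42 of the 32285 listed genes, namely 17 ligands, 24 receptors and 1 antisense transcript, Tnfsf13os. The rule uses symbols alone.

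Ligands of this family act as trimers that cluster their receptors. Receptors with a death domain, such as Fas and Tnfrsf1a, can recruit caspase-8 and trigger apoptosis, whereas most receptors bind TRAF adaptors and activate NF-kappa B. In border tissues of the brain, as in lymphoid organs, the family is known for the survival of B cells, the costimulation of T cells, the organization of stromal cells by lymphotoxin and the acute response to injury.

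The series holds 2 libraries of single cells from mouse dorsal meninges, in which each captured transcript carries a cell barcode and a unique molecular identifier (UMI). Both libraries were made from male wild-type C57BL/6 mice (C57BL/6J in the study's methods) of 10 weeks, although a separate field of the sample records gives 10 to 12 weeks. In the TBI group the mice had received a single mild closed-skull impact, a model of traumatic brain injury, and in the Sham group the procedure without the impact. The meninges of 5 mice per group were pooled 1 week later, the tissue under the impact was not among them, and live single cells were sorted without selecting any cell type. With 1 library per group there is no replicate, so no test between Sham and TBI could be made. The 95% intervals given here are exact Poisson or binomial intervals that cover counting error alone.

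After filtering, 2043 Sham cells with 7866611 UMIs and 3773 TBI cells with 13940740 UMIs remained, and the family took 9623 and 14069 of these UMIs (0.122% and 0.101%). The libraries shared 20 barcode sequences, 14 of them after filtering. Cells were clustered on genes that held no family member, and the 25 clusters were named from marker genes as 19 classes, called "-like" because they were rebuilt here. The listed markers, which the names rest on, were higher in the named class than in the other cells for all but 1 marker of the dendritic-like and 1 of the pineal gland-like class, the latter at 0, which is a description and not an independent check. Levels are given as counts per 1000000 UMIs of a class (CPM). Because this 3' assay does not measure genes on 1 scale, a level is compared between classes or libraries and not between genes. Where a pair of values is given, the Sham value comes first and the TBI value second. "Combined" refers to the sum of both libraries, and the class said to lead for a gene, and the order of classes, are those of the combined level.

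Of the 42 members, 37 had at least 30 UMIs over both libraries: 13 of 17 ligands, 23 of 24 receptors and Tnfsf13os. The other 5 were Cd70, Tnfsf4 (OX40L), Tnfsf15 (TL1A), Tnfsf18 (GITRL) and the receptor Tnfrsf8 (CD30), with 2 to 15 UMIs. Summed over the ligands, the combined level was highest in ILC2 or Th2-like cells, at 2264 CPM in the Sham library and 1841 CPM in the TBI library. Gamma-delta or Th17-like cells had 1421 and 2168 CPM and so stood above ILC2 or Th2-like cells in the TBI library. The combined ligand level was lowest in choroid plexus-like cells at 3.12 and 33.8 CPM. Summed over the receptors, it was highest in B-like cells at 1396 and 1370.5 CPM and again lowest in choroid plexus-like cells at 93.6 and 103 CPM. The highest sums came mostly from a few genes and do not describe the whole family. In ILC2 or Th2-like cells Ltb alone gave 1085 of the 1320 ligand UMIs. In B-like cells Tnfrsf13c gave 1609 and Tnfrsf13b 699 of the 2720 receptor UMIs. For 16 of the 37 members, 5 ligands and 11 receptors, the interval of the leading class lay apart from that of the class ranked next. A lymphoid class led for 7 of the 13 ligands and 8 of the 23 receptors, while endothelial-like cells led for 5 receptors and migratory dendritic-like cells for 4. Separate intervals and leading classes were not counted over all genes. These counts therefore describe the members and do not set them apart from other genes.

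**Figure D1:**
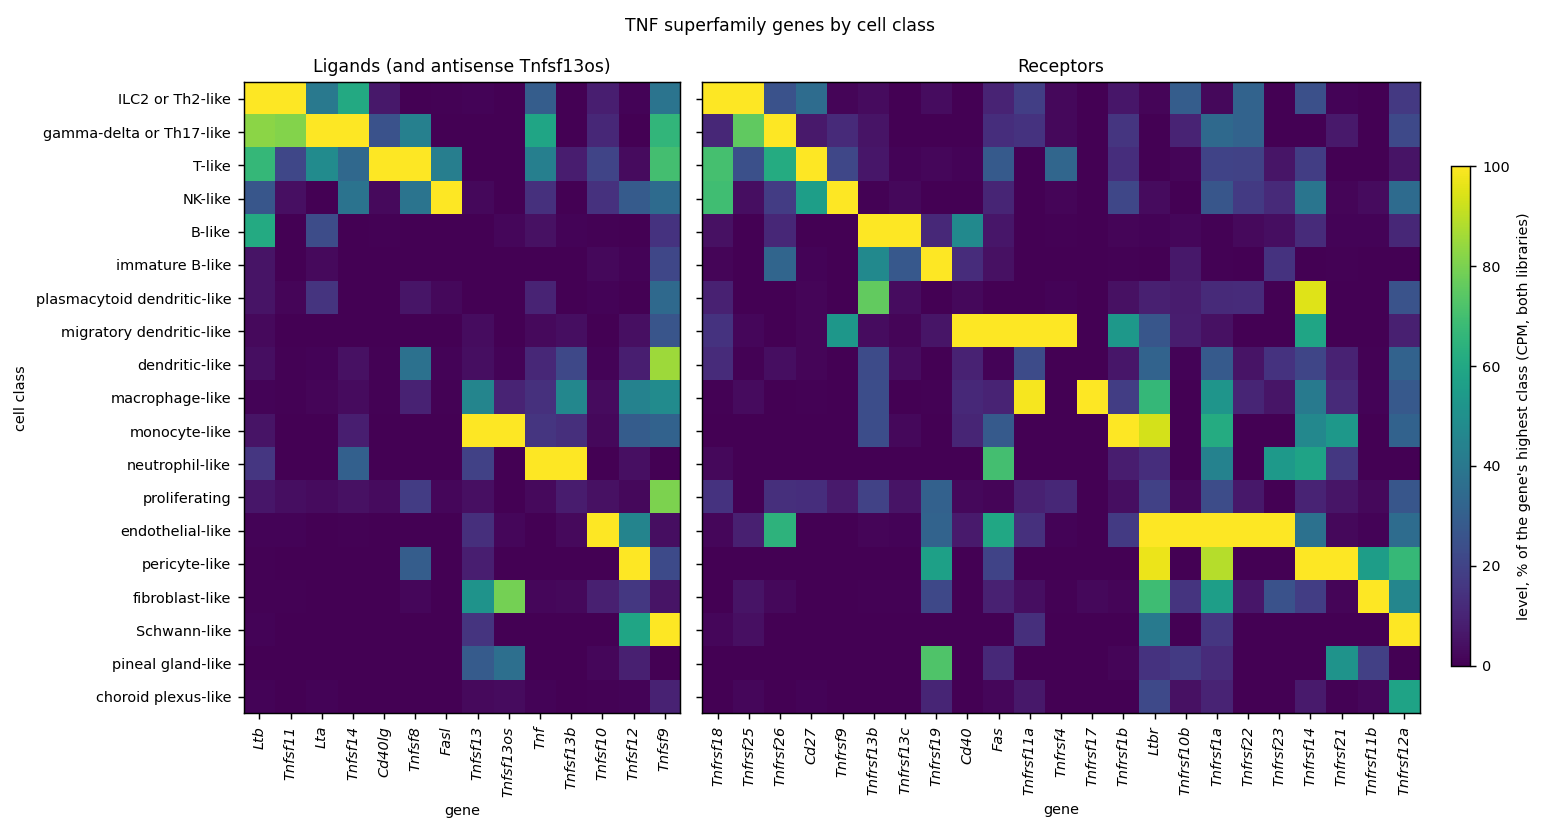
Level of each member with at least 30 UMIs (columns) in each of 19 cell classes (rows), as a percent of the level in that gene's leading class, over both libraries. Lymphotoxin, CD40 ligand and Fas ligand are bright in the lymphoid rows at the top, and Tnfrsf1a, Ltbr and Tnfrsf10b in the endothelial-like row.

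Tnf, Lta and Ltb, the founding ligands of the family, lie next to each other on chromosome 17 within the major histocompatibility complex. Tnf and Lta are 1157 bases apart and Ltb and Tnf 3060 bases apart (GENCODE vM21, build GRCm38). Lta encodes lymphotoxin alpha, which is secreted as a homotrimer or anchored by Ltb, lymphotoxin beta, in a membrane complex that signals through Ltbr.

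The genes differed in where their UMIs were found. Ltb led in the combined libraries in ILC2 or Th2-like cells, at 1822 CPM (interval 1666 to 1989.6) in the Sham library and 1541 CPM (interval 1419 to 1671) in the TBI library. Next in the combined order came gamma-delta or Th17-like cells at 1031 and 1586 CPM, T-like cells at 1136 and 1086 CPM and B-like cells at 1092 and 908 CPM. The combined interval of the first lay above that of the next, although in the TBI library alone the next was slightly higher and in the Sham library T-like cells passed it. All 4 classes are lymphoid, and B-like and T-like cells held 35.5% and 26.2% of all Ltb UMIs. After each cell was thinned to 1000 UMIs, 71.4% of ILC2 or Th2-like cells and 0 of 761 fibroblast-like cells held an Ltb UMI, the latter allowing a share of up to 0.394%. Without thinning the shares were 84.3% and 0.991%, at median depths of 2936.5 and 2954 UMIs per ILC2 or Th2-like cell and 1952 and 2241.5 per fibroblast-like cell in the Sham and TBI libraries.

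Among the 2 B-like clusters, Ltb was higher in the one led by Ighd, Fcer2a and Cr2 (1309 and 1139.7 CPM) than in the one led by Ms4a1 and light chain genes (986 and 785 CPM). The intervals of the clusters did not overlap in either library. In dendritic-like cells, those with a UMI of Cd209a, a marker of the cDC2 type, and none of the cDC1 markers Xcr1 or Clec9a had 74.9 and 49.3 CPM, and cells with the opposite pattern 5.75 and 2.62 CPM from 1 UMI in each library.

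Lta showed the same lymphoid classes at fewer UMIs. It reached 62.5 and 90.3 CPM from 4 and 9 UMIs in gamma-delta or Th17-like cells and 27.7 and 45.5 CPM from 15 and 36 UMIs in T-like cells, and 0 of 908 fibroblast-like cells held a UMI, which allows a share of up to 0.330%. Tnf, which macrophages and T cells are known to release, had its highest level in neutrophil-like cells (21.7 and 129 CPM from 1 and 12 UMIs), where 8 of the 12 TBI UMIs came from 1 cell. Its level was 44.3 and 37.9 CPM from 24 and 30 UMIs in T-like and 9.71 and 14.5 CPM from 15 and 52 UMIs in macrophage-like cells, and the latter held 29.6% of all Tnf UMIs. Within the macrophage-like class, Tnf was highest in the cluster led by Fcgr4, Cx3cr1 and H2-Eb1 (13.9 and 24.5 CPM), against 0 and 11.6 CPM in the cluster led by Ccl8 and Cd209g and 7.86 and 4.02 CPM in the cluster led by C5ar1 and Fcrls. The combined interval of the Fcgr4-led cluster lay above that of the C5ar1-led cluster and overlapped that of the Ccl8-led one. Of the macrophage-like Tnf UMIs, 6 of 15 in the Sham library and 7 of 52 in the TBI library came from 1 cell. The order of the clusters without these cells was not computed. In the combined libraries Tnf had more than 3 UMIs in 11 of the 19 classes, Lta in 6 and Ltb in 16.

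For these 3 neighbours the sequence before each start site is shown (RefSeq, GRCm38.p6, 5′ to 3′). Capitals mark matches on either strand to the kappa B consensus, TATAAA or the GC box GGGCGG. Ltb is at chr17:35194257-35194438, strand +, Tnf at chr17:35202008-35202257, strand - and Lta at chr17:35205352-35205601, strand -. For Ltb the last 68 of the 250 bases searched are left out, since GENCODE places them inside the gene.
Ltb: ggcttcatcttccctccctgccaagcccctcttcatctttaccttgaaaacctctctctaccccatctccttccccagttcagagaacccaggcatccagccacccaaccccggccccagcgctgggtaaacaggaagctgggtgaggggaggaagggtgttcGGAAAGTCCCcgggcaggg
Tnf: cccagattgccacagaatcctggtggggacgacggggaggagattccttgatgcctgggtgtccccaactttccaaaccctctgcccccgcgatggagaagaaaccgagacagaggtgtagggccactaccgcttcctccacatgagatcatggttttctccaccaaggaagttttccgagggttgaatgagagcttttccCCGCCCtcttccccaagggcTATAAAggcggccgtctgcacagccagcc
Lta: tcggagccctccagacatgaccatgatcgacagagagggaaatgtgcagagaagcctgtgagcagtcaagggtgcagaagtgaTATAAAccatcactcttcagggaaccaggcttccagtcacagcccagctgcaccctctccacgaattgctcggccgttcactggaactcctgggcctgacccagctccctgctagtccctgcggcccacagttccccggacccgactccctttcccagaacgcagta

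The Ltb window held 1 kappa B match, which began 87 bases before the RefSeq start, and no TATAAA or GC box. The Tnf window held TATAAA at 29 bases and a GC box at 49 bases before the start, and the Lta window TATAAA at 167 bases. No 2 matches overlapped. Of 32851 promoter windows of 250 bases in the same table, 3.9% held a kappa B match, 12.4% TATAAA and 32.7% the GC box. RefSeq promoter entries were at hand for 31 of the 42 members. A match describes letters in these windows only.

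The receptors Tnfrsf1a, Ltbr and Tnfrsf1b led outside the lymphocytes. Tnfrsf1a, the main TNF receptor and the carrier of a death domain, had more than 3 UMIs in 18 of 19 classes of the combined libraries. It led in the combined libraries in endothelial-like cells, at 307 CPM (interval 265 to 354) in the Sham library and 431 CPM (interval 396 to 468) in the TBI library, with an interval that overlapped that of pericyte-like cells. Next in order were pericyte-like (474 and 304 CPM), monocyte-like (191 and 277 CPM) and fibroblast-like cells (186 and 225 CPM). B-like cells had 2.55 CPM over both libraries, from 5 UMIs. Ltbr, the lymphotoxin beta receptor, followed nearly the same order. It had 80.9 and 122 CPM in endothelial-like, 94.8 and 109.6 CPM in pericyte-like, 106 and 98.9 CPM in monocyte-like and 1.02 CPM in B-like cells, and the intervals of the first 3 overlapped.

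Tnfrsf1b, the second TNF receptor, which lacks a death domain, had another pattern. It led in monocyte-like cells at 368 CPM (interval 275 to 482) in the Sham library and 346 CPM (interval 269.8 to 437) in the TBI library, followed by migratory dendritic-like cells at 204 and 178 CPM, and the combined intervals did not overlap. Fibroblast-like cells, which carried Tnfrsf1a, had 5.27 CPM of Tnfrsf1b over both libraries. Tnfsf14 (LIGHT), a further ligand of Ltbr, was found in gamma-delta or Th17-like (141 and 140.5 CPM from 9 and 14 UMIs), ILC2 or Th2-like (109.6 and 68.4 CPM from 30 and 26 UMIs) and NK-like cells (42.8 and 65.0 CPM from 14 and 19 UMIs). Its other receptor Tnfrsf14 (HVEM) had 75 UMIs in all, 34.7% of them in macrophage-like cells at 5.83 and 4.73 CPM, the intervals of its first classes overlapped, and its leading class moved from pericyte-like to plasmacytoid dendritic-like cells when predicted doublets were removed.

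Genes of the chromosome 6 group of receptors differed in class despite their position. Cd27, Ltbr and Tnfrsf1a follow each other at chromosome 6 with gaps of 69560 and 35476 bases. Cd27, the receptor of CD70, led in T-like cells (196 and 172 CPM) and had 0 of 685 B-like cells with a UMI, which allows a share of up to 0.438%, whereas both neighbours led in endothelial-like cells.

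The death ligands had separate sources. Fasl, which kills Fas-bearing targets of cytotoxic lymphocytes, led in NK-like cells at 239 CPM (interval 189 to 298) in the Sham library and 205 CPM (interval 157 to 264) in the TBI library and came next in T-like cells at 88.7 and 99.8 CPM. These classes held 48.3% and 44.4% of its UMIs, and their intervals did not overlap in either library. Fas led in migratory dendritic-like cells (80.5 and 102 CPM from 15 and 23 UMIs), followed by neutrophil-like (108 and 43.2 CPM from 5 and 4 UMIs) and endothelial-like cells (61.5 and 52.3 CPM from 38 and 69 UMIs), with overlapping intervals for the first pair. Endothelial-like cells held the largest share of Fas UMIs, 34.9%.

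Tnfsf10 (TRAIL) was mainly endothelial. Its level in endothelial-like cells was 273 CPM (interval 234 to 318) in the Sham library and 272 CPM (interval 244 to 301) in the TBI library, nearly equal between the libraries, and this class held 67.6% of its UMIs. T-like cells came next at 55.4 and 56.9 CPM. After thinning, 25.7% of endothelial-like and 0.165% of B-like cells held a Tnfsf10 UMI. Without thinning the shares were 39.4% and 0.438%, at median depths of 1801 and 1984 UMIs per endothelial-like and 3056.5 and 2632 per B-like cell in the Sham and TBI libraries.

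Tnfrsf10b, the mouse receptor for TRAIL with a death domain, led in the same class at 51.8 CPM (interval 35.4 to 73.1) in the Sham library and 66.7 CPM (interval 53.5 to 82.2) in the TBI library. Both genes were lower in the endothelial-like cluster led by Vwf, Cytl1 and Slc38a5 than in the cluster led by Igfbp3, Gpihbp1 and Kdr. Tnfsf10 had 144 and 205 CPM in the first and 318 and 310.1 CPM in the second, and Tnfrsf10b 12.6 and 39.3 CPM and 65.4 and 82.6 CPM. Fas followed the same order, with 18.8 and 26.9 CPM and 76.3 and 67.0 CPM. The combined intervals of the clusters did not overlap for any of the 3 genes.

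Tnfrsf22 and Tnfrsf23, decoy receptors for TRAIL in the mouse, and Tnfrsf26 lie in a row on chromosome 7. Endothelial-like cells held 54.4%, 52% and 39.7% of their UMIs, the largest share in each case. Their levels there were low, at 24.3 and 16.7 CPM from 15 and 22 UMIs, 17.8 and 11.4 CPM from 11 and 15 UMIs and 14.6 and 10.6 CPM from 9 and 14 UMIs. Tnfrsf21 (DR6), a death-domain receptor outside this group, led in pericyte-like cells at 356 and 236 CPM, followed by monocyte-like cells at 149 and 138 CPM and pineal gland-like cells at 91.0 and 152 CPM. T-like cells had 0.750 CPM, from 1 UMI.

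RANK ligand, its receptor and its decoy were found in different compartments. Tnfsf11 (RANKL), the cytokine that drives osteoclasts and lymph node development, led in ILC2 or Th2-like cells at 197 and 142 CPM and in gamma-delta or Th17-like cells at 62.5 and 181 CPM from 4 and 18 UMIs, with overlapping intervals. B-like cells had no Tnfsf11 UMI among 685 cells, which allows a share of up to 0.438%. Its receptor Tnfrsf11a (RANK) led in migratory dendritic-like (42.9 and 40.1 CPM) and macrophage-like cells (40.8 and 40.9 CPM), and macrophage-like cells held 73.9% of its UMIs.

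Tnfrsf11b (osteoprotegerin), the soluble decoy that binds RANKL and TRAIL, was found mainly in fibroblast-like cells. These held 90.2% of its UMIs, at 61.2 CPM (interval 38.8 to 91.8) in the Sham library and 54.8 CPM (interval 45.6 to 65.3) in the TBI library. Within the class, the cluster led by Ptgds, Slc4a10 and Cldn11 had 94.0 and 96.0 CPM from 21 and 115 UMIs, and the cluster led by Comp, Matn4 and Fmod 13.1 and 9.24 CPM from 2 and 10 UMIs. The cluster intervals lay apart in both libraries. The next class, pericyte-like cells, held 5 UMIs, all of them in the TBI library.

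Tnfsf12 (TWEAK) was broad in stroma and macrophages. It led in pericyte-like cells at 213 and 169 CPM from 9 and 20 UMIs, followed by Schwann-like (124 and 93.4 CPM from 9 and 10 UMIs), endothelial-like (77.7 and 83.4 CPM from 48 and 110 UMIs) and macrophage-like cells (66.1 and 86.2 CPM from 102 and 310 UMIs). The combined intervals of pericyte-like and Schwann-like cells overlapped, and 5 of the 9 Sham UMIs in pericyte-like cells came from 1 cell. Macrophage-like cells held 50.6% of Tnfsf12 UMIs, and B-like cells had 0.509 CPM. Its receptor Tnfrsf12a (Fn14), which is known to be induced in injured tissue, reached no more than 27.8 CPM in the combined libraries. Among its leading classes were Schwann-like cells with 41.4 and 18.7 CPM from 3 and 2 UMIs and choroid plexus-like cells with 15.6 and 16.3 CPM from 5 and 13 UMIs, and their intervals overlapped.

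The survival factors of B cells and their receptors divided between myeloid or stromal sources and B-like cells. Tnfsf13b (BAFF) led in neutrophil-like cells at 86.7 and 53.9 CPM from 4 and 5 UMIs, with an interval that overlapped that of macrophage-like cells at 27.2 and 31.1 CPM. Macrophage-like cells held 67.2% of its UMIs, and the Fcgr4-led cluster had 40.4 and 43.0 CPM, against 16.5 and 18.6 CPM in the Ccl8-led and 11.8 and 21.4 CPM in the C5ar1-led cluster. Tnfsf13 (APRIL) led in monocyte-like cells at 177 and 129 CPM, above fibroblast-like (47.9 and 80.7 CPM) and macrophage-like cells (62.8 and 69.2 CPM) without overlap of the combined intervals. Fibroblast-like cells, the source of 29.4% of Tnfsf13 UMIs, had 1.51 CPM of Tnfsf13b.

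Tnfsf13, Tnfsf12 and the antisense Tnfsf13os overlap or adjoin on chromosome 11, so values of these 3 genes carry an uncertainty of assignment that the counts do not show. Tnfsf13os had 92 UMIs, 66.3% of them in fibroblast-like cells at 23.9 and 22.8 CPM, and its leading classes, monocyte-like and fibroblast-like cells, were those of Tnfsf13.

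Of the 3 receptors, Tnfrsf13c (BAFF receptor), which keeps mature B cells alive, had the largest share of its UMIs in B-like cells. It led there at 805 CPM (interval 754 to 859) in the Sham library and 839 CPM (interval 778 to 905) in the TBI library, and the share was 83.8%. Immature B-like cells came next at 176 and 267 CPM. After thinning, 49.9% of B-like and 0.263% of fibroblast-like cells held a Tnfrsf13c UMI, against 72.6% and 0.441% without thinning, at median depths of 3056.5 and 2632 UMIs per B-like and 1952 and 2241.5 per fibroblast-like cell in the Sham and TBI libraries.

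Both Tnfrsf13c and Tnfrsf13b were higher in the Ms4a1-led than in the Ighd-led B-like cluster, the reverse of Ltb. Tnfrsf13c had 974 and 1015 CPM in the first and 459 and 509.7 CPM in the second, and Tnfrsf13b 458 and 365 CPM and 244 and 209 CPM, without overlap in either library. Tnfrsf13b (TACI), which binds BAFF and APRIL, had UMIs in more myeloid cells. Its level was 388 and 311 CPM in B-like cells, 314 and 246 CPM in plasmacytoid dendritic-like, 93.4 and 70.6 CPM in dendritic-like and 73.2 and 88.4 CPM in macrophage-like cells, and the last class held 25% of its UMIs. All 3 macrophage-like clusters carried it, at 72.9 to 88.9 CPM over both libraries. In dendritic-like cells it was higher with a Cd209a UMI (112 and 70.7 CPM) than with an Xcr1 or Clec9a UMI (46.0 and 49.7 CPM), and these intervals overlapped in the TBI library.

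Tnfrsf17 (BCMA), a receptor known from plasma cells, was found almost solely in macrophage-like cells. The gene (chr16:11313812-11320074, strand +, GRCm38) had 91 UMIs, of which 90 lay in macrophage-like cells, at 14.9 CPM (interval 9.44 to 22.4) in the Sham library and 18.6 CPM (interval 14.4 to 23.7) in the TBI library, and 1 in a fibroblast-like cell. They came from 21 of 362 macrophage-like cells in the Sham library and 59 of 797 in the TBI library, so the UMIs were spread over many cells. No UMI was found in 685 B-like cells, which allows a share of up to 0.438% of these cells and a level of up to 1.53 CPM. None of the 25 clusters was named from the plasma cell markers. The share of macrophage-like cells with a UMI was 6.90% without and 1.83% after thinning, against 0.110% and 0% in fibroblast-like cells, at median depths of 2186.5 and 3861 UMIs per macrophage-like and 1952 and 2241.5 per fibroblast-like cell.

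Tnfrsf17 also separated the macrophage-like clusters. It had 28.9 and 41.9 CPM from 7 and 18 UMIs in the Ccl8-led and 27.5 and 29.5 CPM from 14 and 44 UMIs in the C5ar1-led cluster, both of which express Pf4, Folr2 and Cbr2, genes of tissue-resident border macrophages. The Fcgr4-led cluster, led also by Cx3cr1 and the MHC class II gene H2-Eb1, had 2.52 and 2.99 CPM from 2 and 5 UMIs. Its interval lay below those of both other clusters in each library. Tnf, Tnfsf13b and Cd40 instead had their highest level in the Fcgr4-led cluster. For Tnf, however, its combined interval overlapped that of the Ccl8-led cluster, and 6 of the 15 Sham macrophage-like UMIs came from 1 cell.

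**Figure D2:**
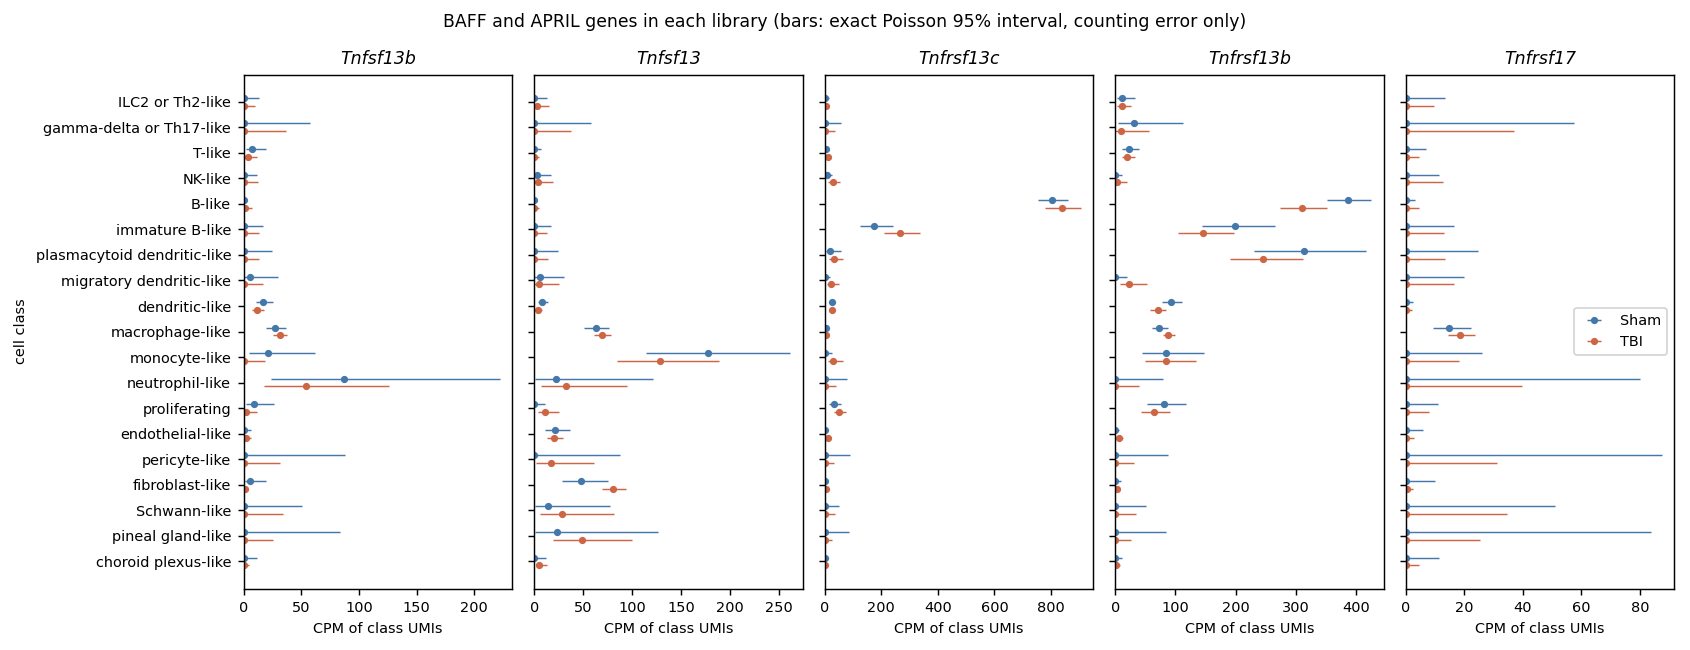
Level in CPM (horizontal axis, linear) of the ligands Tnfsf13b (BAFF) and Tnfsf13 (APRIL) and the receptors Tnfrsf13c, Tnfrsf13b and Tnfrsf17 in 19 classes (rows), with Sham in blue, TBI in orange and bars for the exact Poisson 95% interval. The receptors Tnfrsf13c and Tnfrsf13b lead in B-like cells, and macrophage-like cells are the class with Tnfrsf17, at 14.9 and 18.6 CPM.

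Among the costimulatory pairs, Cd40lg and Cd40 led in different classes, each with a combined interval apart from that of its next class. In most other pairs the ligand or the receptor had at most 15 UMIs, too few to place its leading class. Cd40lg, with which helper T cells activate B cells and dendritic cells, led in T-like cells. They held 88.5% of its UMIs, at 140.4 CPM (interval 111 to 176) in the Sham library and 109 CPM (interval 86.9 to 134) in the TBI library. The 39 and 36 T-like cells with a Cd4 UMI and no Cd8a or Cd8b1 UMI had 225 and 186 CPM from 31 and 29 UMIs. The 35 and 58 with the opposite pattern had 41.1 and 7.96 CPM from 7 and 2 UMIs, without overlap in either library. After thinning, 13.2% of T-like cells held a UMI, against 25.3% without, and 0 of 908 fibroblast-like cells held one even without thinning, which allows a share of up to 0.330%. Median depth was 3245 and 3137 UMIs per T-like cell in the Sham and TBI libraries.

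Cd40, the receptor, led in migratory dendritic-like cells at 488 CPM (interval 393 to 599.7) in the Sham library and 223 CPM (interval 165 to 294) in the TBI library, and the intervals of the libraries did not overlap. In this small class of 24 and 31 cells, 34 of the 91 Sham UMIs and 16 of the 50 TBI UMIs came from 1 cell. B-like cells came next at 157 and 172 CPM and held 37.4% of all Cd40 UMIs. Among macrophage-like cells, the Fcgr4-led cluster was highest at 47.9 and 65.1 CPM, against 33.0 and 16.3 CPM in the Ccl8-led and 17.7 and 20.1 CPM in the C5ar1-led cluster.

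Tnfrsf4 (OX40) and Tnfrsf18 (GITR), receptors of activated and regulatory T cells, are 9551 bases apart on chromosome 4. Tnfrsf4 led in migratory dendritic-like cells (225 and 299 CPM from 42 and 67 UMIs), followed by T-like cells (131 and 58.1 CPM from 71 and 46 UMIs). T-like cells with a Cd4 UMI alone had 421 and 128 CPM from 58 and 20 UMIs, against 5.87 and 0 CPM from 1 and 0 UMIs in those with a Cd8a or Cd8b1 UMI alone, and the remaining T-like UMIs lay in cells of neither kind. Tnfrsf18 had another order, with 379.8 and 295 CPM in ILC2 or Th2-like, 236 and 231 CPM in T-like and 214 and 246 CPM in NK-like cells, and the combined interval of the first lay above the others.

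Foxp3, the defining factor of regulatory T cells, had a UMI in 6 Sham and 9 TBI cells of the T-like and ILC2 or Th2-like classes. Tnfrsf4 reached 660.0 and 409.7 CPM from 13 and 13 UMIs in these cells and 74.2 and 31.6 CPM in the 257 and 350 cells without one. For Tnfrsf18 the levels were 863 and 567 CPM from 17 and 18 UMIs and 270.3 and 243 CPM. In each library the interval of cells with a Foxp3 UMI lay above that of cells without. Of these 15 cells, 7 held a Tnfrsf4 UMI and 10 a Tnfrsf18 UMI, and median depth was 3793 and 2509 UMIs with a Foxp3 UMI and 3020 and 3031 without.

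Tnfrsf9 (4-1BB), a receptor that sustains cytotoxic cells, led in NK-like cells at 242 CPM (interval 191 to 301) in the Sham library and 277 CPM (interval 220.0 to 344) in the TBI library, although 35 of the 79 Sham UMIs came from 1 cell. Migratory dendritic-like cells followed at 91.2 and 174 CPM. Its ligand Tnfsf9 was spread thinly over Schwann-like, dendritic-like, proliferating and T-like cells with overlapping intervals. Dendritic-like cells held the largest share, 30.7%, at 27.6 and 20.5 CPM from 39 and 34 UMIs, and in macrophage-like cells of the TBI library 26 of 53 Tnfsf9 UMIs came from 1 cell.

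Tnfsf8, the CD30 ligand, led in T-like cells (53.6 and 34.1 CPM from 29 and 27 UMIs), and its receptor Tnfrsf8 had 7 UMIs, 6 of them in monocyte-like cells. Tnfrsf25 (DR3), a death-domain receptor that costimulates innate and adaptive lymphocytes, led in ILC2 or Th2-like cells (131 and 142 CPM from 36 and 54 UMIs). Gamma-delta or Th17-like cells came next (93.7 and 110.4 CPM from 6 and 11 UMIs) with an overlapping interval, while its ligand Tnfsf15 had 2 UMIs. Cd70, the ligand of Cd27, had 15 UMIs, of which 5 lay in migratory dendritic-like and 5 in T-like cells. For Tnfrsf25, Cd27, Tnfrsf4 and Tnfrsf18 the named ligand had at most 15 UMIs, whereas for Tnfsf8 it was the receptor that was hardly detected.

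Tnfrsf19 (TROY), an orphan receptor known from neural and epithelial progenitors, had its highest level in immature B-like cells (58.6 and 32.1 CPM from 13 and 9 UMIs), with an interval that overlapped those of pineal gland-like and pericyte-like cells. Endothelial-like cells held the largest share of its UMIs, 23.7%, and all 27 lay in the Vwf-led cluster, at 37.7 and 43.5 CPM from 6 and 21 UMIs. In the Igfbp3-led cluster 0 of 633 cells held one, which allows a share of up to 0.474% and a level of up to 2.32 CPM. Tnfrsf19 was thus opposite to Tnfsf10, Tnfrsf10b and Fas between the endothelial-like clusters.

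**Figure D3:**
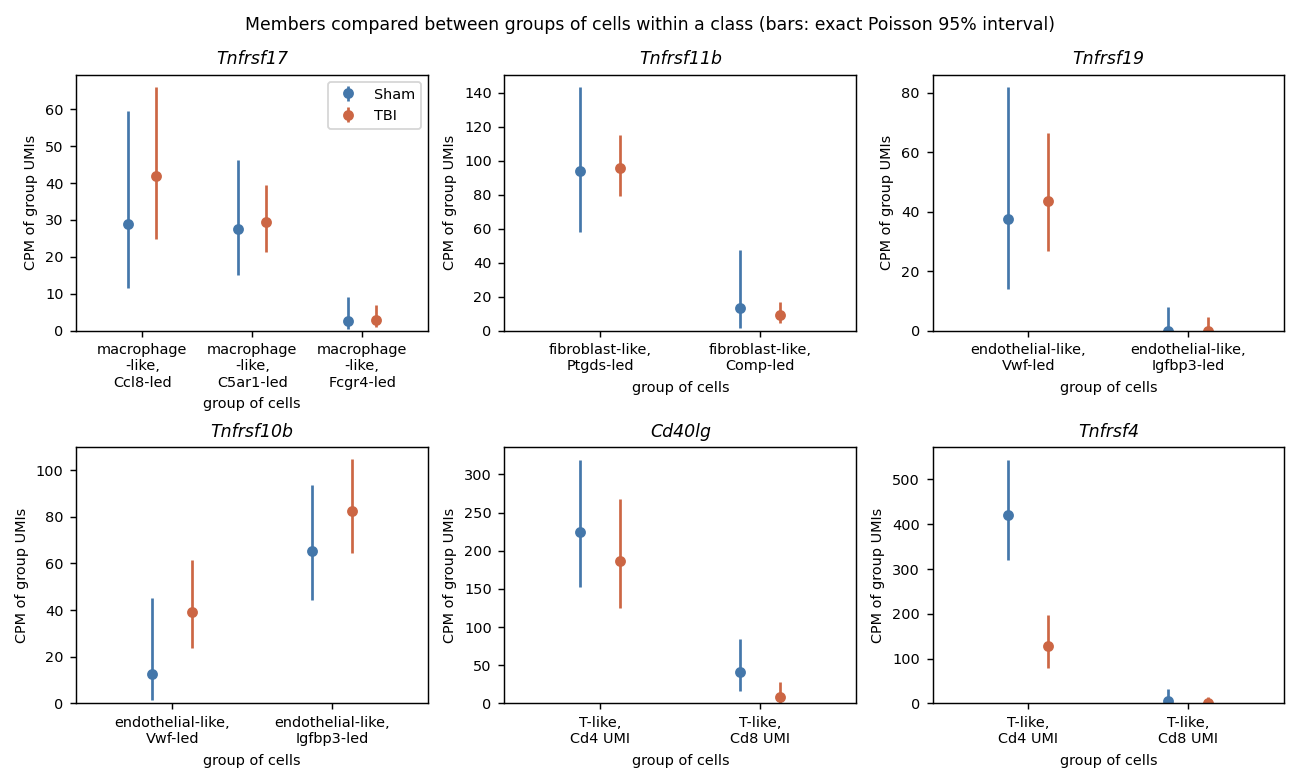
Level in CPM (vertical axis, linear from 0) of 6 members in clusters of 1 class, or in T-like cells split by a Cd4 or Cd8 UMI, with Sham in blue, TBI in orange and bars for the exact Poisson 95% interval. Tnfrsf11b has 94.0 and 96.0 CPM in the Ptgds-led and 13.1 and 9.24 CPM in the Comp-led fibroblast-like cluster.

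The study compared the meninges after TBI with those after the Sham procedure. The family's levels in the libraries were compared in the 8 classes with at least 75 cells in each library, for members with at least 20 UMIs in the class. Each log2 ratio sets the TBI level over the Sham level after adding 0.5 UMIs to both, and a fold of at least 1.5 either way served as the rule of size. Over the 8 classes, 27 of 106 values passed this rule, and for 7 of the 27 the counting interval left out 0. Of all genes counted, 12.5% to 23.5% passed it, depending on the class.

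In macrophage-like cells 3 of 21 members were past 1.5-fold, against 12.5% of all genes counted there. As a mean over cells of each cell's CPM, 9 members passed. No share of all genes was set beside that count, since the 12.5% belongs to summed UMIs. By summed UMIs the median over the 21 members was 0.18, and 0.016 over all genes. Ltb was lower in the TBI library, at 24.6 and 10.3 CPM from 38 and 37 UMIs, a log2 ratio of -1.26 (95% interval -1.95 to -0.57). In the Sham library 17 of the 38 Ltb UMIs came from 1 cell, and without the leading cell of each library the log2 ratio was -0.87, and without predicted doublets -2.16. By cluster, Ltb had 40.4 and 11.9 CPM from 32 and 20 UMIs in the Fcgr4-led, 20.6 and 23.3 CPM from 5 and 10 UMIs in the Ccl8-led and 1.96 and 4.69 CPM from 1 and 7 UMIs in the C5ar1-led cluster, so the lower TBI level was seen in the first of these and not in the others. Tnfsf8 and Fas were past the rule in the other direction, with log2 ratios of 1.74 (95% interval -0.02 to 5.17) from 2 and 19 UMIs and 0.65 (95% interval -0.33 to 1.88) from 10 and 38 UMIs, and both intervals held 0. Tnfsf12 was higher in the TBI library within 1.5-fold, with a log2 ratio of 0.38 (95% interval 0.06 to 0.72). The Ccl8-led cluster held 187 of 362 Sham and 300 of 797 TBI cells. Macrophage-like cells had a lower median depth in the Sham library (2186.5 UMIs) than in the TBI library (3861 UMIs), and its part in these values was not tested.

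In fibroblast-like cells 4 of 11 members were past 1.5-fold, against 23.5% of all genes. The median was -0.13 over the members and -0.03 over all genes. Tnfsf13 (APRIL) was higher in the TBI library, at 47.9 and 80.7 CPM from 18 and 184 UMIs, a log2 ratio of 0.72 (95% interval 0.05 to 1.54). The Ptgds-led cluster held 93 of 132 Sham and 425 of 776 TBI cells. The direction was the same in the Ptgds-led (58.2 and 77.6 CPM) and the Comp-led cluster (32.8 and 84.1 CPM). The 18 Sham UMIs of Tnfsf13 were divided between these clusters, and the intervals of the cluster values are not given. Tnfsf10 was lower, at 55.9 and 18.9 CPM from 21 and 43 UMIs, a log2 ratio of -1.58 (95% interval -2.35 to -0.74). In the Sham library 10 of its 21 UMIs came from 1 cell, and without the leading cells the log2 ratio was -0.83. Fas had 0 UMIs in 132 Sham cells, which allows a share of up to 2.27%, and 23 UMIs in the TBI library at 10.1 CPM. Set against a floor of 3 counts in the Sham library, the Fas level in the TBI library was at least 1.26-fold higher, a bound without counting error. The counting interval of its log2 ratio began at -0.078 and so held 0. With 0.5 UMIs added to each sum Fas passed the rule. The bound against the floor of 3 counts lies below 1.5-fold and so does not decide whether it passed. Tnfrsf12a had a log2 ratio of -0.73 (95% interval -1.89 to 0.79) from 7 and 27 UMIs, and the sign turned to 0.32 when predicted doublets were removed.

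In endothelial-like cells 4 of 15 members were past 1.5-fold, against 16.9% of all genes, with medians of -0.01 and 0.02. Ltb had 3.24 and 19.7 CPM from 2 and 26 UMIs, a log2 ratio of 2.31 (95% interval 0.61 to 5.73). Of the 26 TBI UMIs 14 came from 1 cell, and without predicted doublets the log2 ratio was 0.12 and after thinning -0.27. The share of endothelial-like cells with an Ltb UMI was 0.322% and 1.38%, against 1.52% and 0.902% of fibroblast-like cells, a class that should lack the gene. The other 3, Tnfrsf19 (0.63, but -0.66 at clustering resolution 1.6), Tnfrsf23 (-0.66) and Tnfrsf25 (-0.73 on the log2 scale), had intervals that held 0. The receptors for TNF and lymphotoxin that led in this class were higher in the TBI library just within the rule. Tnfrsf1a had 307 and 431 CPM, a log2 ratio of 0.48 (95% interval 0.25 to 0.73), and Ltbr 80.9 and 122 CPM, a log2 ratio of 0.58 (95% interval 0.13 to 1.08). Both were higher in the TBI library in each endothelial-like cluster. Tnfrsf1a had 327 and 396 CPM in the Igfbp3-led and 251 and 490.5 CPM in the Vwf-led cluster, and Ltbr 80.7 and 127 CPM and 81.6 and 114 CPM. The intervals of these cluster values are not given.

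In B-like cells 1 of 6 members, Tnfrsf18, was past 1.5-fold, against 15.9% of all genes, with a log2 ratio of -0.77 (95% interval -2.21 to 0.42) from 20 and 8 UMIs. The medians were -0.20 over the members and 0.02 over all genes. Tnfrsf13c was nearly level, with a log2 ratio of 0.06 (95% interval -0.08 to 0.20). Tnfrsf13b and Ltb were lower in the TBI library within 1.5-fold, with log2 ratios of -0.32 (95% interval -0.55 to -0.09) and -0.27 (95% interval -0.40 to -0.13). Tnfrsf13b was lower in both B-like clusters.

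In T-like cells 5 of 19 members were past 1.5-fold, against 18.2% of all genes, with medians of -0.07 and 0.010. Tnfrsf4 was lower in the TBI library, at 131 and 58.1 CPM from 71 and 46 UMIs, a log2 ratio of -1.17 (95% interval -1.74 to -0.62). In the Sham library 22 of the 71 UMIs came from 1 cell, and without the leading cells the log2 ratio was -0.98. Tnfrsf1a was higher, at 53.6 and 96.0 CPM from 29 and 76 UMIs, a log2 ratio of 0.83 (95% interval 0.21 to 1.51). The intervals of the other 3 held 0, namely Tnfrsf25 (0.72), Lta (0.69) and Tnfsf8 (-0.65 on the log2 scale). As a mean over cells and after thinning, Lta turned to -0.0096 and -0.29 and Tnfsf8 to 0.50 and 0.060. Cd40lg, Fasl, Cd27 and Tnfrsf18 stayed within 1.5-fold, with log2 ratios of -0.37, 0.17, -0.19 and -0.03.

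In dendritic-like cells 6 of 17 members were past 1.5-fold, against 13.9% of all genes, with medians of -0.14 and 0.02. Ltb was lower in the TBI library, at 82.8 and 40.4 CPM from 117 and 67 UMIs, a log2 ratio of -1.03 (95% interval -1.49 to -0.59), and in cells with a Cd209a UMI it had 74.9 and 49.3 CPM. The other 5 had intervals that held 0: Tnfrsf12a (0.97), Tnf (0.87) and Tnfsf12 (0.66, but -0.49 as a mean over cells) were higher and Tnfsf14 (-0.79) and Tnfrsf1b (-0.61 on the log2 scale) lower. Median depth was 10520 UMIs per Sham and 7550 per TBI cell, and its part in these values was not tested. Of the 149 and 223 dendritic-like cells, 93 and 130 had a Cd209a UMI and no Xcr1 or Clec9a UMI. The opposite pattern, in which Ltb was hardly found, was seen in 20 and 36 cells. The part of these shares in the Ltb ratio was not tested.

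In ILC2 or Th2-like cells 3 of 7 members were past 1.5-fold, against 19.4% of all genes, with medians of -0.37 and 0.0013. They were Lta (-0.87), Tnfsf14 (-0.68) and Cd27 (0.65 on the log2 scale), and each interval held 0. Lta turned to 0.77 after thinning and Cd27 to -0.14 as a mean over cells. Ltb, the leading ligand of this class, was lower in the TBI library within 1.5-fold, with a log2 ratio of -0.24 (95% interval -0.42 to -0.07). Tnfsf11 had a log2 ratio of -0.47 (95% interval -1.05 to 0.10). In NK-like cells 1 of 10 members, Tnfsf14, was past 1.5-fold, against 20.5% of all genes, with a log2 ratio of 0.59 (95% interval -0.47 to 1.71) and medians of 0.18 and -0.01. Fasl in this class had a log2 ratio of -0.21 (95% interval -0.73 to 0.29) and Tnfrsf9 of 0.20 (95% interval -0.27 to 0.66).

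**Figure D4:**
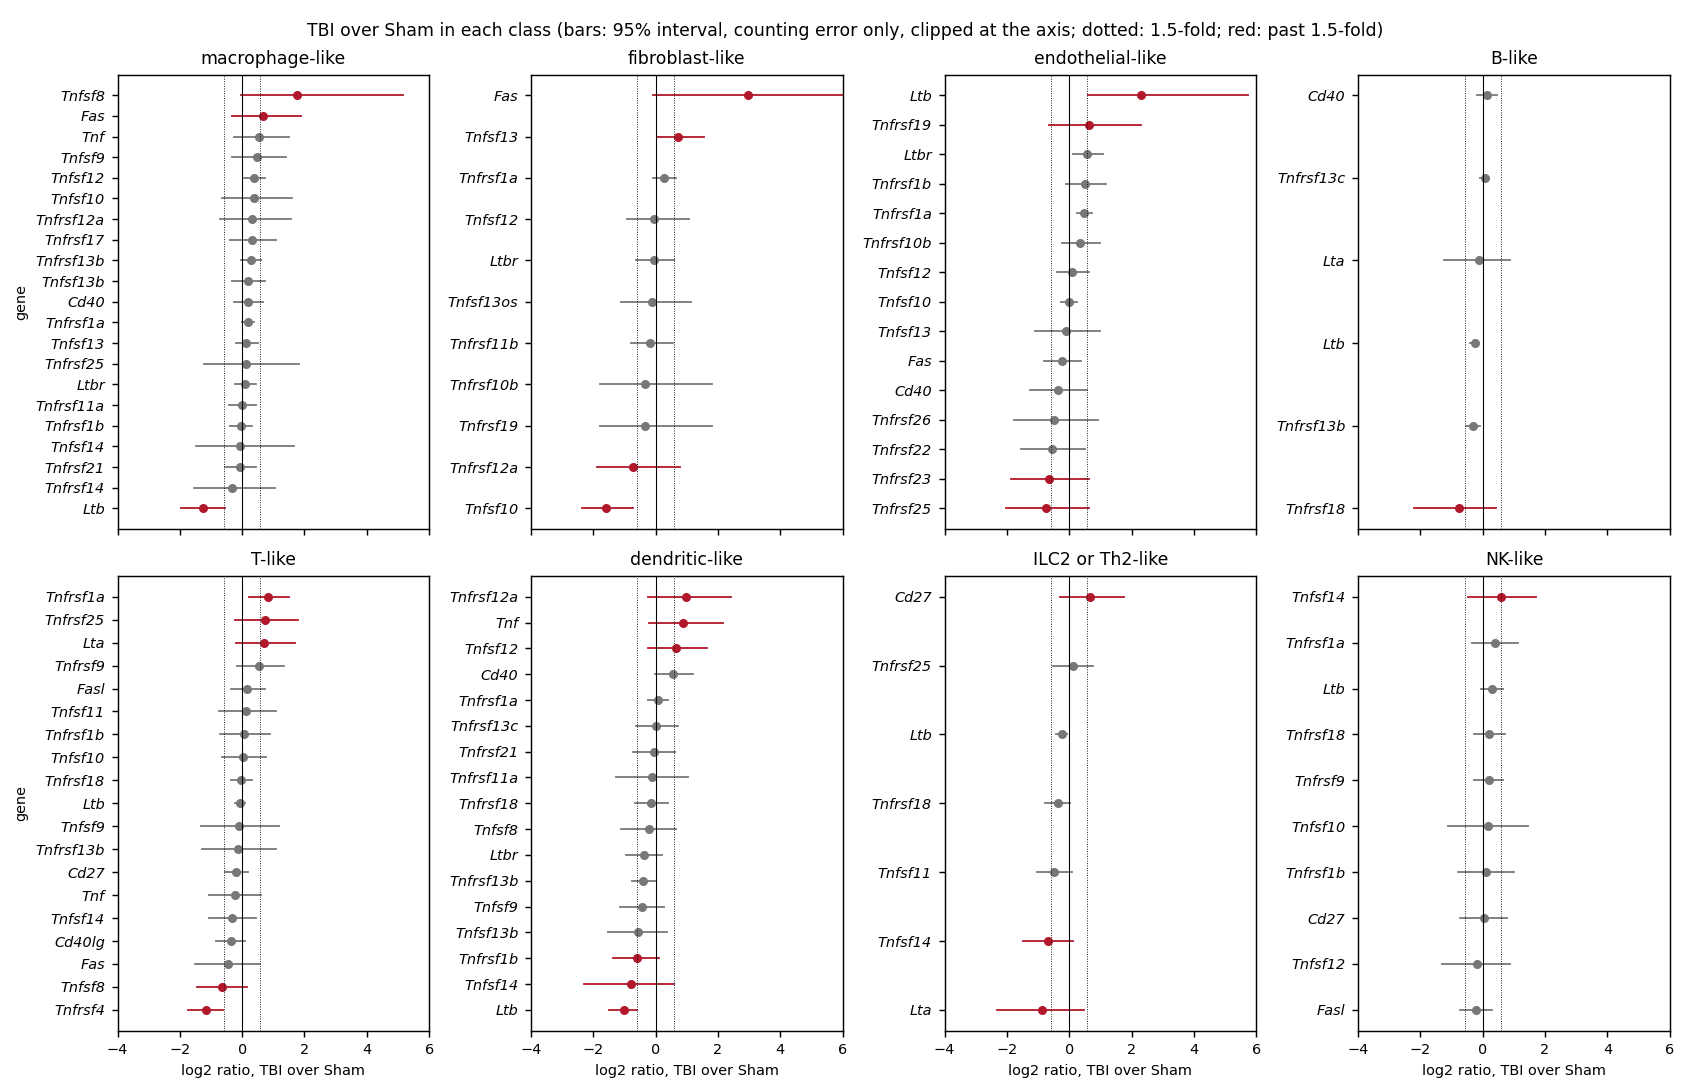
Log2 ratio of TBI over Sham (horizontal axis) of each member with at least 20 UMIs in each of 8 classes, with 95% counting intervals as bars, dotted lines at 1.5-fold and members past it in red. The intervals of 92 of 106 values cross 0. Those of Ltb lie below 0 in macrophage-like and dendritic-like cells (-1.26 and -1.03) and above 0 in endothelial-like cells (2.31).

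Over all filtered cells 13 of 37 members were past 1.5-fold, 5 higher and 8 lower in the TBI library, against 22.7% of all genes. The library shares of the classes also differed, with fibroblast-like cells at 6.46% of Sham and 20.6% of TBI cells and B-like cells at 18.8% and 7.98%. When every class was given its pooled share of UMIs in both libraries, 0 of the 37 members were past 1.5-fold, and 29 of 37 log2 ratios lay closer to 0. Their median size went from 0.50 to 0.16 on the log2 scale. The step was not run over all genes, so whether the members differ from other genes in this was not tested.

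By construction, this step moves members found mainly in classes with unequal shares. The shifts below describe the step and do not test a cause. Tnfrsf13c, mainly of B-like cells, had 130.2 CPM in the Sham and 64.3 CPM in the TBI library, and its log2 ratio went from -1.02 to 0.16. Tnfrsf11b, mainly of fibroblast-like cells, had 3.18 and 9.97 CPM, and its log2 ratio went from 1.63 to -0.02. The other members lower in the TBI library were Tnfrsf4 (-0.92 to -0.55), Ltb (-0.82 to -0.14), Tnfrsf13b (-0.75 to -0.16), Cd40 (-0.67 to -0.08), Tnfrsf18 (-0.63 to -0.16), Tnfsf14 (-0.62 to -0.26) and Cd40lg (-0.59 to -0.30). The other members higher were Tnfsf13 (0.79 to 0.26), Tnfrsf17 (0.72 to 0.34), Tnfrsf12a (0.67 to 0.33) and Tnfsf13os (0.66 to -0.32). Tnfrsf4 kept the largest standardised log2 ratio of these 13 in size. In the Sham library, however, 1 T-like cell held 22 of 71 Tnfrsf4 UMIs and 1 proliferating cell held all 23. The standardised value without these cells was not computed.

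**Figure D5:**
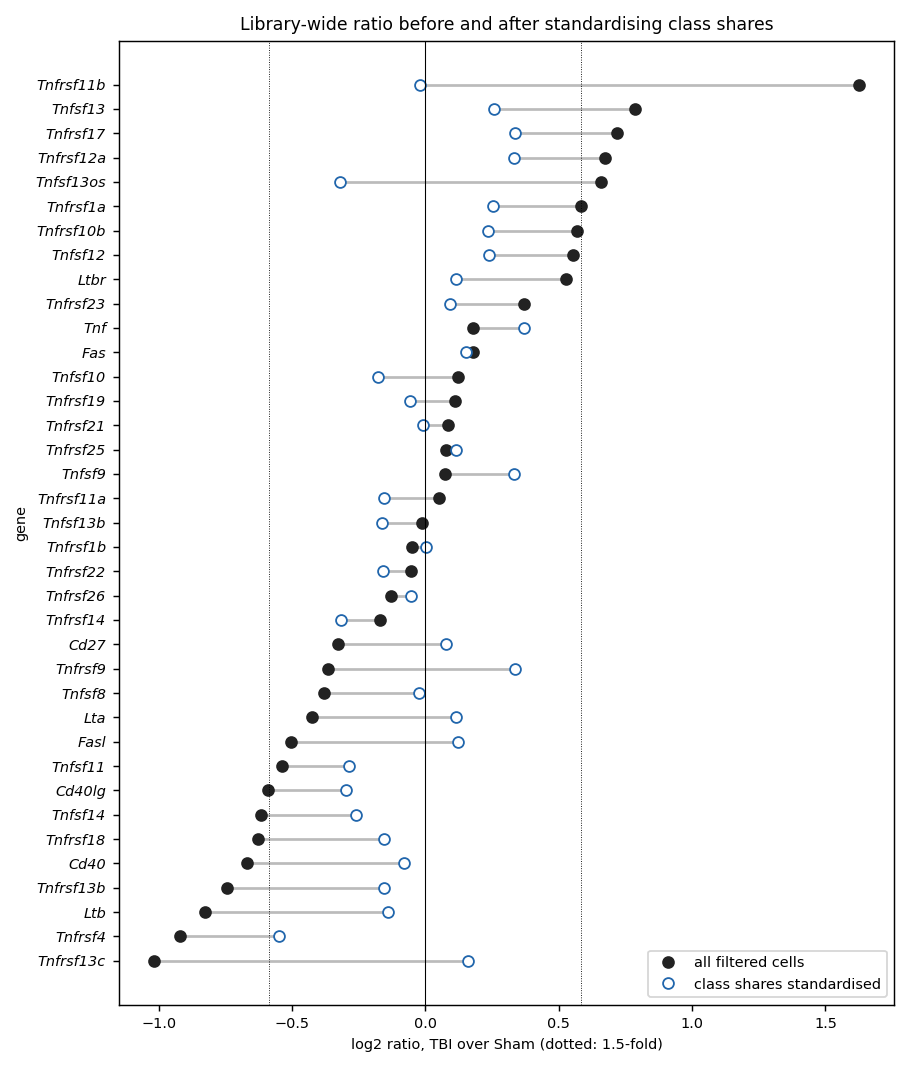
Log2 ratio of TBI over Sham (horizontal axis) of 37 members over all filtered cells (filled points) and after giving each class the same share of UMIs in both libraries (open points), with dotted lines at 1.5-fold. All open points lie between the dotted lines, including Tnfrsf11b at -0.02 and Tnfrsf13c at 0.16.

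Downstream of the receptors, a list of 45 pathway genes was described in the same way: 35 adaptors, kinases, ubiquitin ligases and NF-kappa B subunits or inhibitors, 5 genes that process the ligands, and the superfamily members Eda, Edar, Eda2r, Ngfr and Relt, whose symbols fall outside the rule. Migratory dendritic-like cells had the highest level of 16 of the 45, a description only, since these genes were not left out of the clustering. No minimum of UMIs and no interval was applied to this count. It includes Eda2r, with 1 of its 5 UMIs there, and Ikbkb, at 253 CPM against 244 CPM in monocyte-like cells. Leading classes were not counted over all genes, so this count does not set the pathway genes apart. Among them were Relb (1164 CPM over both libraries), an NF-kappa B subunit of the noncanonical route taken by CD40 and Ltbr, its partner Nfkb2 (302 CPM), the kinase Map3k14 (180.2 CPM) and the adaptor Traf1 (986 CPM). The next class had 92.2 CPM of Relb, 144 CPM of Nfkb2, 84.4 CPM of Map3k14 and 141 CPM of Traf1. Migratory dendritic-like cells also led for Cd40, Fas, Tnfrsf4 and Tnfrsf11a, with an interval that overlapped that of the next class for Fas and Tnfrsf11a. A link between these receptors and the pathway genes was not tested.

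Between the libraries, 3 of 40 pathway genes counted in macrophage-like cells were past 1.5-fold, against 12.5% of all genes, all lower in the TBI library: the NF-kappa B inhibitors Tnfaip3 (-1.27) and Tnip1 (-0.60) and the adaptor Traf2 (-0.60 on the log2 scale). Tnfaip3 had 18.1 CPM in the Sham and 7.51 CPM in the TBI library from 28 and 27 UMIs, with an interval from -2.09 to -0.46. For Traf2 the interval ran from -1.22 to 0.04. In dendritic-like cells 4 of 38 were past the rule, against 13.9% of all genes, and Tnfaip3 was among the higher ones at 1.06 with Adam17 (0.59), the protease that sheds TNF, while Tab1 (-0.75) and Traf6 (-0.61) were lower. The difference between the classes was not tested.

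In fibroblast-like cells 6 of 37 pathway genes were past 1.5-fold, against 23.5% of all genes, with Casp8 higher (0.83) and Fadd (-1.38), Tab2 (-1.02), Nfkb2 (-0.83), Ripk1 (-0.73) and Adam10 (-0.69) lower on the log2 scale. The intervals of Casp8 (-0.47 to 2.92), Fadd (-2.66 to 0.19), Nfkb2 (-1.67 to 0.18) and Ripk1 (-1.47 to 0.13) held 0. In endothelial-like cells 6 of 37 were, against 16.9%, with Map3k7 (0.85) and Map3k14 (0.59) higher and Traf6 (-0.92), Birc3 (-0.75), Traf3 (-0.74) and Birc2 (-0.72) lower. The intervals of at least Map3k7 (-0.12 to 2.07), Map3k14 (-0.47 to 1.90) and Birc3 (-1.60 to 0.13) held 0. In B-like cells 4 of 38 were, against 15.9%, with Map3k7 (0.86) and Relt (0.75) higher and the sheddases Adam17 (-0.86) and Adam10 (-0.63) lower. The list median lay within 0.2 of 0 on the log2 scale in all 8 classes. Intervals are not given here for the pathway genes named in dendritic-like, B-like, T-like and ILC2 or Th2-like cells. Those values describe size alone.

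In T-like cells 6 of 34 pathway genes were past 1.5-fold, against 18.2% of all genes, with Ikbkg (2.00) and Adam17 (0.73) higher and Relt (-0.80), Ripk1 (-0.78), Rel (-0.70) and Map3k14 (-0.64) lower on the log2 scale. In ILC2 or Th2-like cells 5 of 25 were, against 19.4%, with Nfkbib (0.78) and Cyld (0.65) higher and Relb (-0.92), Adam10 (-0.76) and Ripk1 (-0.71) lower. In NK-like cells 8 of 25 were, against 20.5%, with Adam17 (1.66), Rbck1 (0.87) and Traf2 (0.62) higher and Tradd (-0.95), Cyld (-0.92), Traf5 (-0.71), Tnip1 (-0.70) and Tnfaip3 (-0.61) lower. Each of these 8 had 5 to 46 UMIs in a library, and the intervals of 6 of them held 0. Over all filtered cells 3 of 43 were past 1.5-fold, against 22.7% of all genes. Eda was higher (1.32) and Nfkb2 (-0.62) and Nfkbie (-0.59) lower, all 3 with intervals that left out 0. Class shares were not standardised for the pathway genes, and their part in these values was not tested. Fibroblast-like cells, at 6.46% of Sham and 20.6% of TBI cells, held 47 of the 56 Eda UMIs. Within that class Eda had 21.3 and 17.1 CPM from 8 and 39 UMIs. Its log2 ratio there was -0.38, with an interval from -1.43 to 0.99 that held 0.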

How the data were processed

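Gene by cell tables of UMI counts were deposited for both libraries, unnormalized. The authors aligned the reads to mm10 with Cell Ranger, for which the sources disagree: the study's methods name version 1.3.1, the submitters' processing notes 2.1.1 and the matrix header 3.1.0. The tables hold cells outside the study's own limits on genes per cell, which were meant to remove doublets, so they precede that step. Here, of 2699 Sham and 4349 TBI barcodes, cells with 150 to 5000 detected genes, at most 20% mitochondrial and at most 5% hemoglobin UMIs were kept, the limits of the study's methods. Counts were log-normalized, and cells were grouped on 20 principal components of 2000 variable genes, leaving out the 42 members, by the Leiden method (20 neighbours, resolution 0.8, seed 1). A cluster took its name from at least 3 listed markers among its top 50 genes by fold, detected in 10% of its cells, with an offset of 0.05. Doublets were predicted from 2 simulated doublets per cell, 40 neighbours and 0.8% per 1000 cells. They were left in, and removed as an alternative.

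Levels are CPM of summed UMIs with exact Poisson 95% intervals, ratios have exact binomial 95% intervals, and thinning to 1000 UMIs left out 388 Sham and 539 TBI cells. PCR and capture add error beyond these intervals. No test between groups was possible with 1 library each. Every member with at least 30 UMIs was named with its values, and ratios were described for genes with at least 20 UMIs in a class of at least 75 cells per library. The members and gene lists were chosen with earlier results of these data known. The log2 ratios and their counting intervals were tested on simulated Poisson sums of macrophage-like and ILC2 or Th2-like cells. Thinning was checked on real cells for its totals alone. Clustering, naming, doublet prediction and the standardising of class shares were not tested on simulated data. Positions come from GENCODE vM21 and promoters from RefSeq, both on GRCm38. Software was python 3.11.15, numpy 2.4.6, scipy 1.17.1, pandas 2.3.3, scikit-learn 1.9.0, leidenalg 0.10.2, igraph 0.11.9 and matplotlib 3.10.9. Alternatives were other clustering resolutions, count minimums, folds and scalings, the mean over cells, thinning and the removal of predicted doublets.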

Additional observations from a re-analysis of the deposited data

Results flagged for a closer look

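The log2 ratio of TBI over Sham for Ltb, the membrane anchor of lymphotoxin, pointed in opposite directions in different classes with intervals that left out 0. It was 2.31 in endothelial-like cells, -1.26 in macrophage-like cells and -1.03 in dendritic-like cells, and the difference between the classes was not tested. Without predicted doublets the values were 0.12, -2.16 and -1.52. After thinning each cell to 1000 UMIs the endothelial-like value was -0.27. Of the Ltb UMIs, 14 of 26 in endothelial-like cells of the TBI library and 17 of 38 in macrophage-like cells of the Sham library came from 1 cell.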

How the results depend on the processing

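Only the 27 class values and the 13 library-wide values past 1.5-fold were recomputed one by one. Of these 309 recomputed log2 ratios, 290 kept their sign and stayed inside the counting interval, 6 left it and 13 turned their sign. Many of these intervals are wide, so staying inside says little. The class total without 3 gene groups and the centring on the median could move class values only slightly. Of 188 recomputed counts and medians, 160 stayed within 1.5 times the count or the median counting error. The cause of the changes was not tested. The sign turned for Tnfrsf12a in fibroblast-like cells (0.32 without predicted doublets, 0.37 as a mean over cells, 0.56 thinned to 1000 UMIs, 0.088 without the leading cell of each library, an alternative chosen after seeing the data), Tnfrsf19 in endothelial-like cells (-0.66 at resolution 1.6), Tnfsf8 in T-like cells (0.50 as a mean over cells, 0.060 thinned), Lta in T-like cells (-0.0096 and -0.29), Tnfsf12 in dendritic-like cells (-0.49 as a mean over cells), Cd27 in ILC2 or Th2-like cells (-0.14 as a mean over cells), Ltb in endothelial-like cells (-0.27 thinned) and Lta in ILC2 or Th2-like cells (0.77 thinned). The number of members past 1.5-fold became 2 in NK-like cells at resolution 0.4. As a mean over cells it became 9 in macrophage-like, 0 in B-like and 2 in NK-like cells. After thinning, which leaves fewer members with 20 UMIs, it became 0 in B-like, 3 in T-like, 2 in dendritic-like and 1 in ILC2 or Th2-like cells, and the median became 0.79 in fibroblast-like and -1.49 in dendritic-like cells. With at least 50 UMIs it became 1 in macrophage-like, 2 in fibroblast-like, 0 in endothelial-like, 0 in B-like, 2 in dendritic-like, 1 in ILC2 or Th2-like and 0 in NK-like cells. With at least 10 UMIs it became 8 in endothelial-like, 3 in B-like, 5 in ILC2 or Th2-like and 2 in NK-like cells. Past 2-fold were 2 members in fibroblast-like, 1 in endothelial-like, 0 in B-like, 1 in T-like, 1 in dendritic-like, 0 in ILC2 or Th2-like and 0 in NK-like cells. No share of all genes was set beside these alternative counts. A change of the UMI minimum also changes how many members are counted, and that number is not given here. These counts therefore cannot be set directly against the main ones. The leading class changed for Tnfrsf19 (pineal gland-like at resolution 0.4) and Tnfrsf14. No paired analysis was possible because each group has 1 library, so no replicate could be left out either. Of the 42 members, 5 had at most 15 UMIs, and 92 of 106 log2 ratios had intervals that held 0. The part of depth in this was not tested.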

Other observations

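In the combined libraries, Ngfr, Rhbdf1 and Adam10 led in Schwann-like cells. Ngfr, the p75 neurotrophin receptor and a member of the superfamily under another symbol, had 122 CPM in Schwann-like and 18.7 CPM in pericyte-like cells. Rhbdf1, a regulator of ligand shedding, had 184 CPM in Schwann-like and 68.4 CPM in pericyte-like cells. The sheddase Adam10 had 317 CPM in Schwann-like and 216 CPM in endothelial-like cells. Nfkbia, the NF-kappa B inhibitor that NF-kappa B itself induces, led in migratory dendritic-like cells with 874 CPM, followed by 638 CPM in endothelial-like cells.

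Single cells held much of some sums in small classes. In proliferating cells of the Sham library, 1 cell held all 23 Tnfrsf4 UMIs, 1 cell all 10 Tnfrsf9 UMIs, and 1 cell 27 of 34 Ltb UMIs. In choroid plexus-like cells of the TBI library, 11 of 14 Ltb UMIs came from 1 cell. Whether these were the same cells was not tested.

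Of the 42 members, 23 lie within 100000 bases of another, in 14 neighbouring pairs. Tnfsf9, Cd70 and Tnfsf14 follow each other on chromosome 17 with gaps of 38239 and 39714 bases, and led in Schwann-like, migratory dendritic-like and gamma-delta or Th17-like cells. For each gene the interval of the leading class overlapped that of the next. The leads of Tnfsf9 and Cd70 rested on 5 UMIs each.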
